A study of Mus musculus with 12 samples.

Results

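Iron storage and transport was examined in 12 single cultured cardiac progenitor cells (CPCs) through 10 genes chosen by name for their known roles in iron handling, of 21729 genes in the table. All 10 were in the table. The genes were the ferritin chains Fth1 and Ftl1, the ferritin cargo receptor Ncoa4, the uptake genes Tfrc, Steap3 and Slc11a2, the exporter Slc40a1, the regulators Ireb2 and Aco1, and the heme-degrading enzyme Hmox1. The CPCs were c-Kit+ lineage-depleted cells from the non-myocyte fraction of hearts of female FVB mice aged 12 weeks. Cells from a pair of hearts were pooled, grown on gelatin in medium that contained serum, insulin-transferrin-selenium, leukemia inhibitory factor, basic fibroblast growth factor and epidermal growth factor, and passaged 5 times. The 12 cells form 1 group (CPC1 to CPC12) with no treatment and no fresh counterpart analyzed here. Each library is a single cell and no culture is named for it, so the cells are not replicates. The spread given below describes these cells, and no test was made between them.

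Iron enters most cells bound to transferrin through the transferrin receptor, is reduced in the endosome by a Steap reductase, and leaves the endosome through the divalent metal transporter Slc11a2. The part that is not used for heme or iron-sulfur clusters is stored in ferritin, a hollow shell of heavy and light chains, and ferroportin (Slc40a1) is the known exporter. The proteins of Ireb2 and Aco1 (IRP2 and IRP1) bind hairpins called iron-responsive elements in messenger RNAs when iron is scarce. Bound in the 5′ untranslated region, they block translation. Bound in the 3′ untranslated region, they protect the message from decay. The counts below measure messenger RNA only, so the translational arm of this control is not visible in them.

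The hairpin is shown for the members in which it was found, because it is a sequence feature that some of the 10 genes share. It was searched as CNNNNN followed directly by the loop CAGTGN and by NNNNN, with the 5 bases before the loop required to pair with the 5 after it, G with T included. A match occurred in 4 of the 10 members. Over all protein-coding genes with annotated transcripts, 294 of 21877 genes held a match on the transcript strand (1.34%) and 242 on the opposite strand (1.11%). Fth1, Ftl1 and Slc40a1 each had 1 match in the 5′ untranslated region, and Tfrc had 4 matches in the 3′ untranslated region. No match in the other 6 members says only that these letters and pairs are not in their transcripts. The sequences are read 5′ to 3′ along the transcript, from GENCODE vM21 transcripts on GRCm38, with the loop in capitals.
Fth1, chr19:9982733-9982759, plus strand: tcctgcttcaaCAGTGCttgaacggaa
Ftl1, chr7:45459780-45459806, minus strand: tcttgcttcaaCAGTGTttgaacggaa
Slc40a1, chr1:45925466-45925492, minus strand: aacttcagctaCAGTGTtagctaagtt
Tfrc, chr16:32631220-32631246, plus strand: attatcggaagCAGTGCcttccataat
Tfrc, chr16:32631599-32631625, plus strand: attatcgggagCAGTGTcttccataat
Tfrc, chr16:32631664-32631690, plus strand: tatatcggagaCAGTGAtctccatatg
Tfrc, chr16:32631711-32631737, plus strand: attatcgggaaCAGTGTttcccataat
Of the genes with this element, Fth1 and Ftl1 were among the most abundant transcripts of the cells, Tfrc was low and uneven, and Slc40a1 was counted in 3 cells, as described below.

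The total per cell ran from 3453708 to 5690184 counts, and 10022 to 11950 genes were detected per cell. A count of 0 allows up to 3 counts, which is 0.527 to 0.869 CPM (the count scaled to a fixed total for every cell) depending on the cell. Reads without molecular identifiers are not independent molecules, so this limit and all intervals describe counting error alone. CPC10 stood apart by endothelial markers, with a summed level of 9810 CPM over 10 genes against at most 58.5 CPM elsewhere. CPC3 had the highest sum of 10 myeloid markers, 1623 CPM against at most 75.6 CPM elsewhere. Cd53 gave 1463 CPM of that sum, and CPC3 was also the highest cell for Cd68 (69.1 CPM), Csf1r (59.1 CPM) and Lyz2 (30.3 CPM). Ptprc had no count in CPC3 and reached 9.70 CPM in CPC7, while Itgam, Laptm5, Tyrobp and Fcer1g had no count in any cell. CPC11 had the highest sum of 10 mural markers, 3737 CPM against at most 172 CPM elsewhere. Acta2 gave 3668 CPM of that sum, and Tagln was at 11.2 CPM. Myh11 and Rgs5 had no count in CPC11, Kcnj8 had none in any cell, and Pdgfrb was highest in CPC12 at 87.5 CPM. The sum of fibroblast markers ran from 219 CPM in CPC10 to 6764 CPM in CPC12. Erythroid markers summed to at most 5.84 CPM. Kit, the gene of the sorting antigen, was counted in CPC10 only. The labels describe female hearts, yet 4 Y-linked genes had counts in 12 of 12 cells.

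Ferritin made up most of the counts on the 10 genes. Fth1 (chromosome 19, 9980598 to 9985098), which encodes the heavy chain with ferroxidase activity, ranked 2 among all genes by mean CPM, a scale not divided by length. It was lowest in CPC11 at 4222 CPM, had a median of 7529 CPM and was highest in CPC4 at 12501 CPM, with a mean of 7995 ± 2778 CPM (SD, 12 cells). CPC1 and CPC5 were also high, at 11013 and 11897 CPM, and CPC2 was close to the lowest at 4431 CPM. The highest cell thus had 2.96 times the level of the lowest, the narrowest range of the 10 genes.

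Ftl1 (chromosome 7, 45457944 to 45459884), which encodes the light chain that supports core formation, ranked 22 by mean CPM. It ran from 1108 CPM in CPC12 through a median of 2034 CPM to 4447 CPM in CPC3, with a mean of 2402 ± 1186 CPM (SD, 12 cells). The cells fell on either side of an empty stretch. CPC1, CPC3, CPC4, CPC7 and CPC9 had at least 3317 CPM, whereas the other 7 cells had at most 2070.4 CPM. Ftl1 counts may be too low. Of its 75-base stretches, 51.3% also occurred in transcripts of 8 other annotated genes, among them the pseudogenes Ftl1-ps1, Ftl1-ps2 and Ftl2-ps, and only uniquely mapped reads were kept. For Fth1 the share was 0.882%.

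Fth1 and Ftl1 together held a median of 1.01% of all counts of a cell. The lowest share was 0.555%, in CPC11, with a Clopper-Pearson 95% interval of 0.549 to 0.562%. The highest was 1.63%, in CPC4, with an interval of 1.62 to 1.64%. All 10 iron genes together held 0.654 to 1.95% of counts. The part outside ferritin differed between cells. In CPC3 ferritin held 1.30% of the 1.60% of all members, and in CPC5 it held 1.32% of 1.36%.

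The balance of heavy to light chain counts differed between cells more than the ferritin share did. Fth1 had 1.92 times the counts of Ftl1 in CPC7 and in CPC3, 3.25 times at the median, and 8.81 times in CPC5. CPC12 and CPC6 were also high, at 8.52 and 6.25 times. All other cells lay between 1.92 and 3.86 times. CPC4 and CPC5 had almost equal Fth1 levels (12501 and 11897 CPM) with Ftl1 at 3819 and 1350 CPM, so the ratios of these cells differed through the light chain. Comparing the chains within a cell requires their lengths. Per kilobase of all annotated exons the median ratio was 1.26, and Ftl1 was above Fth1 in 4 cells. Per kilobase of the longest principal transcript the median ratio was 2.11, and of the shortest 3.39. With both, Fth1 was above Ftl1 in 12 of 12 cells. The order of the chains in those 4 cells therefore depended on the length used. Reads of Ftl1 lost to its shared stretches would raise all of these ratios, by an amount that was not measured.

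**Figure D1:**
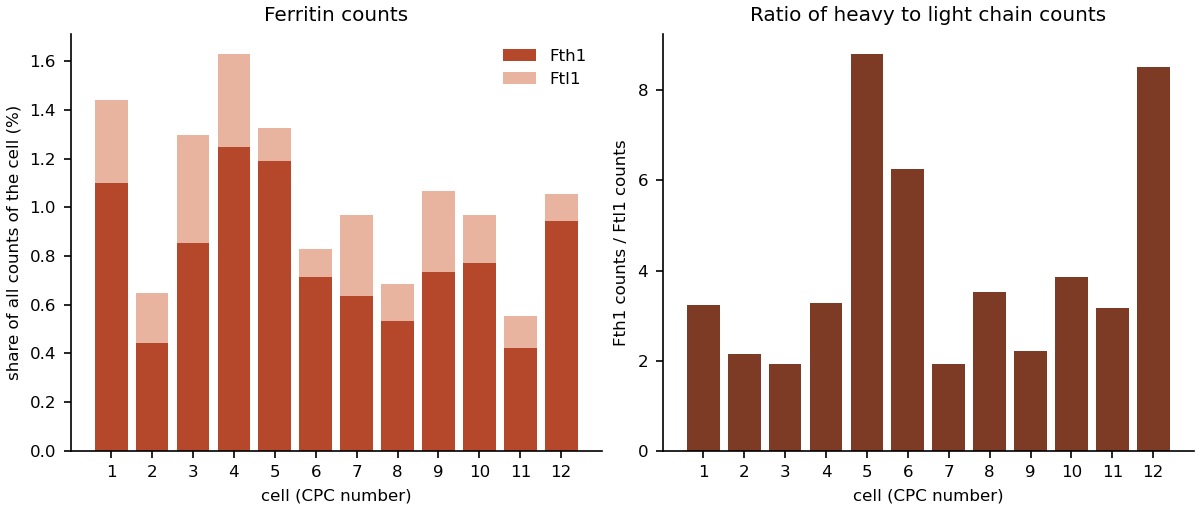
Left, share of all counts of each cell (%, y axis) on Fth1 and Ftl1, stacked, for CPC1 to CPC12; right, Fth1 counts divided by Ftl1 counts in the same cells, 1 bar per cell. The share ran from 0.555% in CPC11 to 1.63% in CPC4, and the ratio was above 6 in CPC5, CPC6 and CPC12 and at most 3.86 elsewhere.

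Ncoa4 (chromosome 14, 32159865 to 32179855), the receptor that carries ferritin to the lysosome for iron release, was present at a low level in every cell. It ran from 6.17 CPM in CPC5 through a median of 23.8 CPM to 57.5 CPM in CPC12. CPC5, the lowest by a wide margin, rested on 31 counts, and the next cell was CPC10 at 18.0 CPM. Counts of Ncoa4 may be incomplete too, since 16.9% of its 75-base stretches were shared with Gm6768.

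The uptake genes differed in how evenly they were spread over the cells. Tfrc (chromosome 16, 32608920 to 32632794), the transferrin receptor, was the most uneven of them. It was highest in CPC9, CPC8 and CPC2, at 208, 139 and 124 CPM. No other cell exceeded 59.6 CPM, and the median of all 12 was 41.7 CPM. CPC11 had no Tfrc count among 5542016, which allows up to 0.541 CPM, and CPC6 had 14 counts (exact 95% Poisson interval 7.65 to 23.5 counts) or 3.72 CPM. The mean was 60.7 ± 64.0 CPM (SD, 12 cells), so the SD exceeded the mean.

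Tfrc is known as a gene of dividing cells, so its level was set beside the summed level of the cell cycle genes that the study names (Cdk1, Ccnb2, Cenpa, Cenpe, Cenpf, Aurka and Aurkb). The cycle sum was 3725 CPM in CPC9, 1916 CPM in CPC8 and 896 CPM in CPC2. CPC11, with no Tfrc count, had the lowest sum, 33.7 CPM. CPC5 and CPC1 went the other way. CPC5 had the second highest sum (2495 CPM) with 26.1 CPM of Tfrc, and CPC1 had a sum of 1095 CPM, above that of CPC2, with 24.0 CPM of Tfrc. Spearman's rho between Tfrc and the sum was 0.45 over the 12 cells, a weak relation that is given as a description.

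Steap3 (chromosome 1, 120190757 to 120272705), the endosomal ferrireductase, was highest in CPC10 at 100.8 CPM, CPC9 at 90.8 CPM and CPC12 at 55.0 CPM. The other 9 cells lay between 10.1 and 32.5 CPM, and the median of all was 20.7 CPM. Slc11a2 (chromosome 15, 100387898 to 100425072), the divalent metal transporter, was the more even gene, from 15.9 CPM in CPC6 through a median of 36.4 CPM to 55.3 CPM in CPC9. CPC9 was the highest cell for Tfrc and Slc11a2 and the second highest for Steap3, and it was also the highest cell for 13.8% of all 8492 genes averaging 10 CPM or more, the largest share of any cell. CPC11 was the lowest for Tfrc and Steap3, and its Slc11a2 level of 20.2 CPM was above those of CPC6 and CPC1 only. It is the cell with the high Acta2 level described above, whose part in these levels was not tested.

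The exporter was detected in few cells. Slc40a1 (chromosome 1, 45908068 to 45926523), which encodes ferroportin, had no count in 9 cells, each allowing at most 0.869 CPM. It was counted in CPC4 at 10.5 CPM (44 counts), in CPC7 at 12.6 CPM (66 counts) and in CPC10 at 100.4 CPM (535 counts). CPC10 is the cell with the endothelial markers described above, with Pecam1 at 1422 CPM and Cdh5 at 694 CPM, Kdr at 13.1 CPM, and no count of Cldn5 or Vwf. CPC4 and CPC7 had endothelial sums of 4.07 and 30.2 CPM, within the range of the 9 cells without Slc40a1. Their part in the Slc40a1 level was not tested.

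The regulators were both present in all cells, and their ratio differed widely from cell to cell. Ireb2 (chromosome 9, 54863789 to 54912530) ran from 15.8 CPM in CPC7 through a median of 45.1 CPM to 93.0 CPM in CPC12. Aco1 (chromosome 4, 40143081 to 40198338), whose protein is a cytosolic aconitase when it holds an iron-sulfur cluster, ran from 7.24 CPM in CPC1 through a median of 28.5 CPM to 47.7 CPM in CPC2. Per kilobase of annotated exons the median ratio of Ireb2 to Aco1 was 0.822, and Ireb2 was above Aco1 in 5 cells and below it in 7. With principal transcripts the median was 1.15 and the cells divided 6 to 6. The ratio ran from 0.197 in CPC2 to 2.83 in CPC1 per kilobase of exons. Neither gene was consistently the more abundant.

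Hmox1 (chromosome 8, 75093621 to 75100589), the inducible enzyme that frees iron from heme, ranked 70 by mean CPM and covered the widest range of the 8 members counted in every cell. It was 157 CPM in CPC5, 222 CPM in CPC8 and 317 CPM in CPC6, had a median of 1055 CPM, and reached 2320 CPM in CPC7, 2868 CPM in CPC3 and 2907 CPM in CPC4. The highest cell had 18.5 times the level of the lowest. The lowest value rested on 789 counts (exact 95% Poisson interval 735 to 846 counts), an interval that does not include the capture noise of single cells. CPC3, CPC4 and CPC7, highest for Hmox1, were also among the 5 cells with high Ftl1. CPC5, CPC6 and CPC8, lowest for Hmox1, were among the 7 cells with low Ftl1. The remaining cells mostly went the other way. CPC1 and CPC9, with high Ftl1, had Hmox1 below its median, at 1022 and 979 CPM. CPC2, CPC12 and CPC10, with low Ftl1, had Hmox1 above its median, at 1661, 1397 and 1088 CPM.

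**Figure D2:**
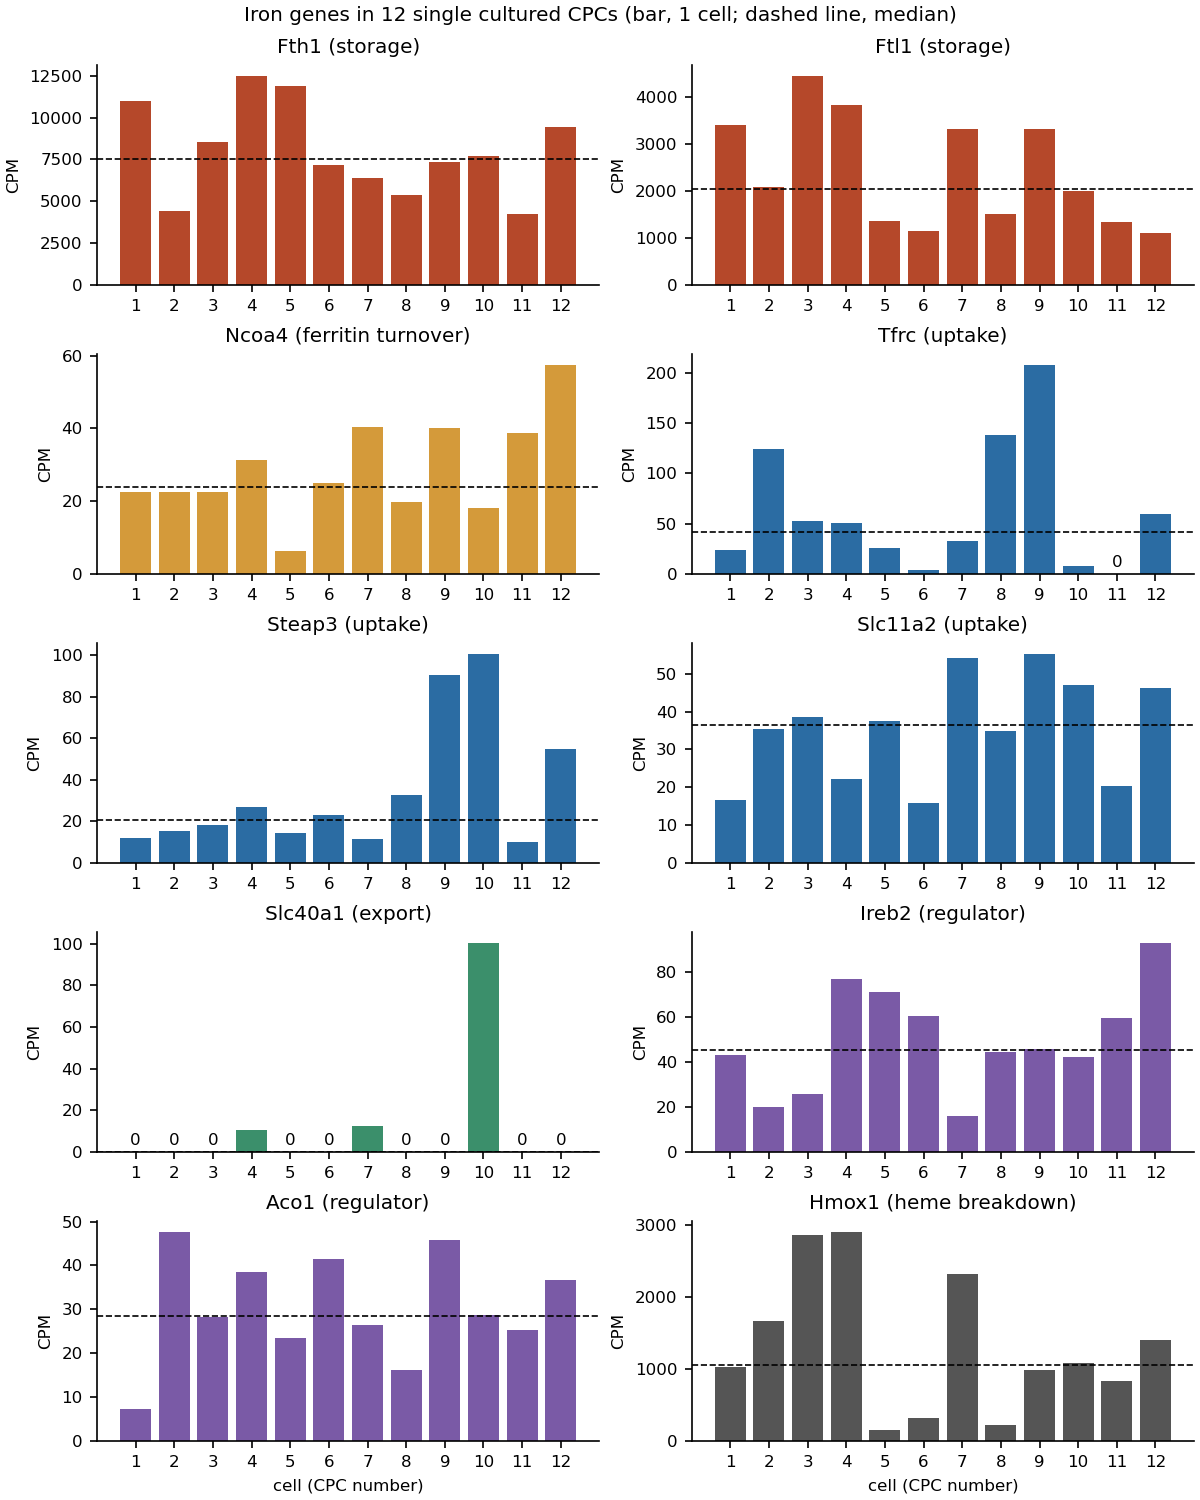
Level in CPM (y axis, from 0, scaled per panel) of each of the 10 iron genes in CPC1 to CPC12 (x axis), with 1 bar per cell, colors for the role named in the panel title and a dashed line at the median. Fth1 varied least between cells by range, Slc40a1 was counted in CPC4, CPC7 and CPC10, and Tfrc was above 100 CPM in CPC2, CPC8 and CPC9.

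Per kilobase of annotated exons the 10 genes fell into separate levels. Fth1 had a median of 2170.3 CPM per kb, Ftl1 1518 and Hmox1 603 CPM per kb. Ftl1 was above Hmox1 in 12 of 12 cells, and Fth1 was above Ftl1 in 8. Tfrc, Aco1, Slc11a2, Ireb2, Steap3 and Ncoa4 followed with medians of 6.74 down to 2.54 CPM per kb. No value of these 6 genes in any cell exceeded 33.7 CPM per kb, and the lowest Hmox1 value was 89.7 CPM per kb. Neighbors among the 6 were not separated, since each was above the next in 6 to 9 of 12 cells. Principal transcript lengths kept the first 3 places and placed Slc11a2, at 12.0 CPM per kb, above Tfrc at 8.52.

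Variation between cells was next set against genes of like abundance. The measure was the dispersion residual, which is the squared coefficient of variation on a log10 scale, less its running median along genes ranked by mean CPM. It was computed for 9701 genes whose mean reached 5 CPM. A value of 0 is the typical gene. Slc40a1 had a residual of 1.04 (percentile 97.9 of all genes), Tfrc 0.71 (94.2), Hmox1 0.55 (91.0) and Steap3 0.47 (88.8). Ftl1 was at 0.20 (72.8). Ireb2, Fth1, Ncoa4, Aco1 and Slc11a2 lay below 0, at -0.06, -0.11, -0.13, -0.25 and -0.28. Tfrc, Hmox1 and Steap3 thus varied more between these cells than the typical gene of like abundance. The Slc40a1 value carries no such reading, since CPC10 held 535 of its 645 counts and the gene reached the minimum mean only through that cell. Without CPC3 and CPC10, Fth1 and Ireb2 were on the other side of 0, at 0.07 and 0.02.

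**Figure D3:**
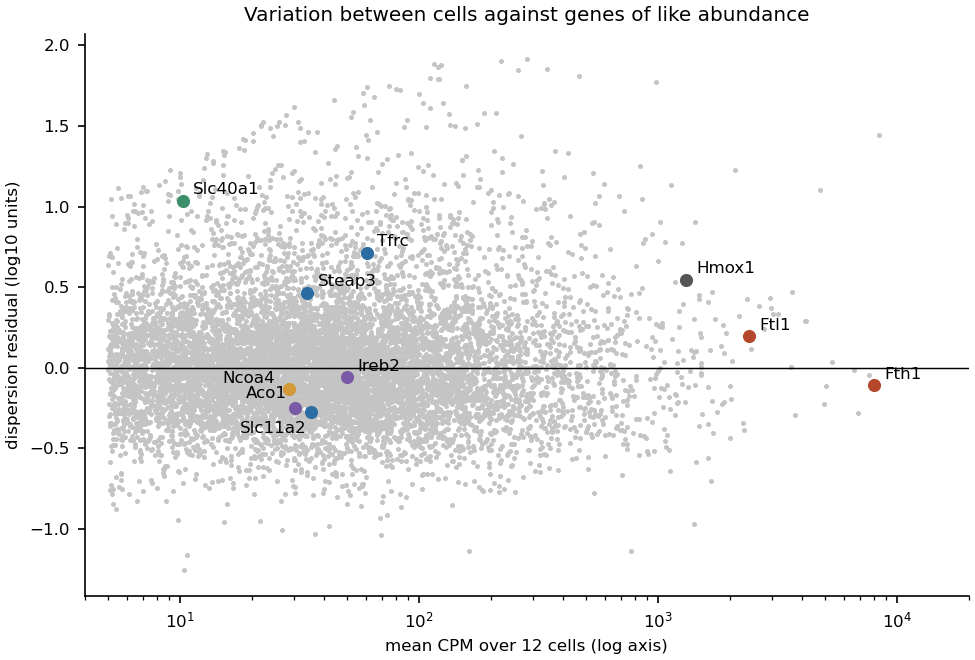
Dispersion residual (y axis, log10 units, 0 is the running median) against mean CPM over 12 cells (x axis, log axis) for 9701 genes in gray, with the 10 iron genes in the colors of their roles and named. Slc40a1, Tfrc, Hmox1 and Steap3 lie above most genes, and Slc11a2 and Aco1 lie below 0.

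Whether the iron genes moved together was described by Spearman's rho of CPM over the 12 cells, for the 36 pairs of the 9 genes counted in at least 10 cells. The points share library depth and capture, and rho is a description with no test. The median was 0.20, with 25 pairs above 0 and 11 below, and it fell to 0.11 without CPC11 and 0.12 without CPC9. The range was -0.51 to 0.64. The highest pair was Ftl1 with Hmox1, at 0.64, which lay between 0.55 and 0.82 when each cell was left out in turn. Fth1 and Ftl1, whose proteins share a shell, had a rho of 0.29, and Fth1 with Hmox1 had 0.21. The lowest pair was Ftl1 with Ireb2 at -0.51. Leaving out cells moved Fth1 with Hmox1 between -0.03 and 0.47, Fth1 with Ftl1 between 0.12 and 0.48, and Ftl1 with Ireb2 between -0.79 and -0.36. The uptake genes Tfrc, Steap3 and Slc11a2 had rho values of 0.39 to 0.48 with each other.

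**Figure D4:**
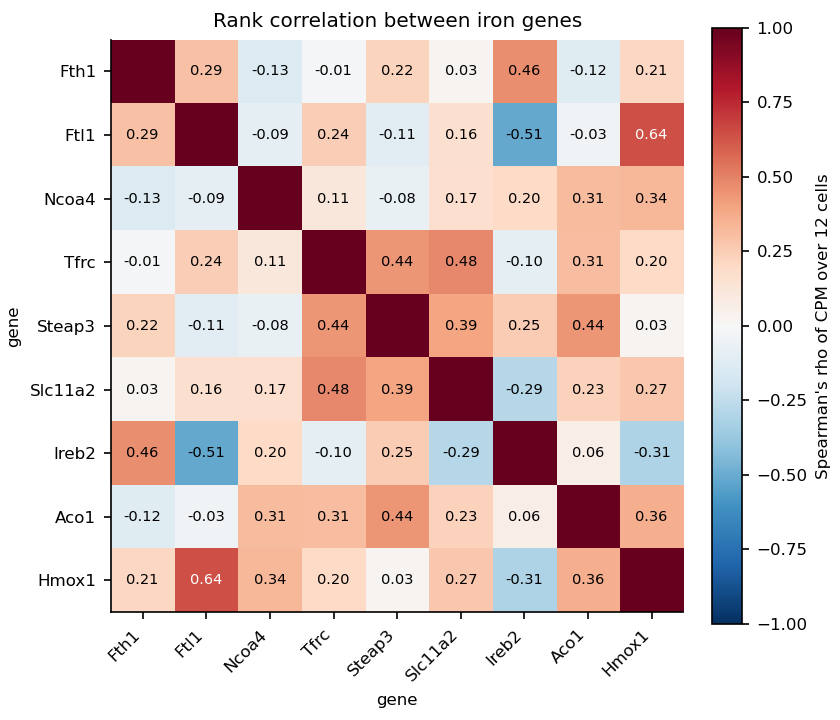
Spearman's rho of CPM over 12 cells (color scale from -1 to 1, values printed) for pairs of the 9 iron genes counted in at least 10 cells, both axes listing the genes. The pair Ftl1 and Hmox1 has the highest value, 0.64, and Ftl1 and Ireb2 the lowest, -0.51.

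Hmox1, Ftl1 and Fth1 are known targets of the oxidative stress factor Nrf2, so they were set beside 10 other Nrf2 target genes. Ftl1 had a median rho of 0.55 with the 10 genes, with 8 above 0, and Hmox1 had 0.39, with 9 above 0. Over 5261 genes counted in every cell and averaging 30 CPM or more, the median rho was -0.06 for Ftl1 and -0.05 for Hmox1. The median for Fth1 was 0.30, with 7 above 0, against -0.03 over all genes. For single genes of that set, the 5th to 95th percentiles of rho were -0.54 to 0.47 for Ftl1. They were -0.52 to 0.44 for Hmox1 and -0.57 to 0.50 for Fth1. The medians of Hmox1 and Fth1 lay within these ranges and that of Ftl1 above. A median of 10 genes is not the same measure as a single rho. Of the other members, Ncoa4 had a median of 0.28, close to Fth1, with 9 above 0. Aco1, Tfrc and Slc11a2 had 0.15, 0.13 and 0.12, with 9, 6 and 7 above 0. Slc40a1 was left out here, since it was counted in 3 cells. Steap3 and Ireb2 were below 0, at -0.08 and -0.23. Without CPC3, which had Prdx1 at 26037 CPM and a sum over the list of 29827 CPM, the medians were 0.55 for Ftl1 and 0.40 for Hmox1. Srxn1, which repairs oxidized peroxiredoxins, was at 0.84 with Ftl1, while Me1 was at -0.22.

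Other measures moved with the ferritin genes as well. Fth1 had a rho of 0.69 with the mitochondrial share of counts, which was 1.02 to 2.77%. Ftl1 had -0.54 with the total count, -0.54 with the sum of the fibroblast markers and 0.71 with the sum of the myeloid markers, of which 4 of 10 had no count in any cell. The part of these in the ferritin levels was not tested.

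Genes whose pattern over cells was most like that of a member were read from the same 5261 genes (5262 for Ncoa4, itself under 30 CPM). For Ftl1 these were Gstp1, a glutathione transferase, at a rho of 0.86, Emc8 at 0.85 and Srxn1 at 0.84. For Hmox1 they were Pla2g4a at 0.86, the late endosome GTPase gene Rab7 at 0.80 and Lamtor3 at 0.79. Fth1 was closest to Mib1, R3hdm1 and Birc6, each at 0.88, and Ireb2 to Trip12 at 0.89, Trip4 at 0.87 and Ranbp2 at 0.85. Ncoa4 had the highest value, 0.94 with Brf1, followed by Nipsnap3b and Yif1b at 0.90. Steap3 was closest to Ino80c at 0.91, Slc11a2 to Eif4g1 at 0.85 and Aco1 to Lyplal1 at 0.85. These values are the highest of 5261 read over 12 cells, so they are high by selection.

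The wider iron pathway was read from 5 lists of 58 other genes, of which 57 were in the table. Of these, 33 were counted in every cell and 7 had no count in any cell. Of 684 gene-by-cell values, 61.3% reached 10 CPM, compared with 35.9% over all genes of the table and 88.3% for the 10 members. The lists differed in how complete they were. Cytosolic handling was nearly complete, with 6 of 7 genes counted in every cell, followed by heme metabolism with 12 of 15 and iron-sulfur cluster assembly with 11 of 15. Uptake and reduction had 4 of 13 (30.8%), and export and its control had 0 of 7. Over all genes of the table the share counted in every cell was 35.3%, so the uptake list was close to that background.

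**Figure D5:**
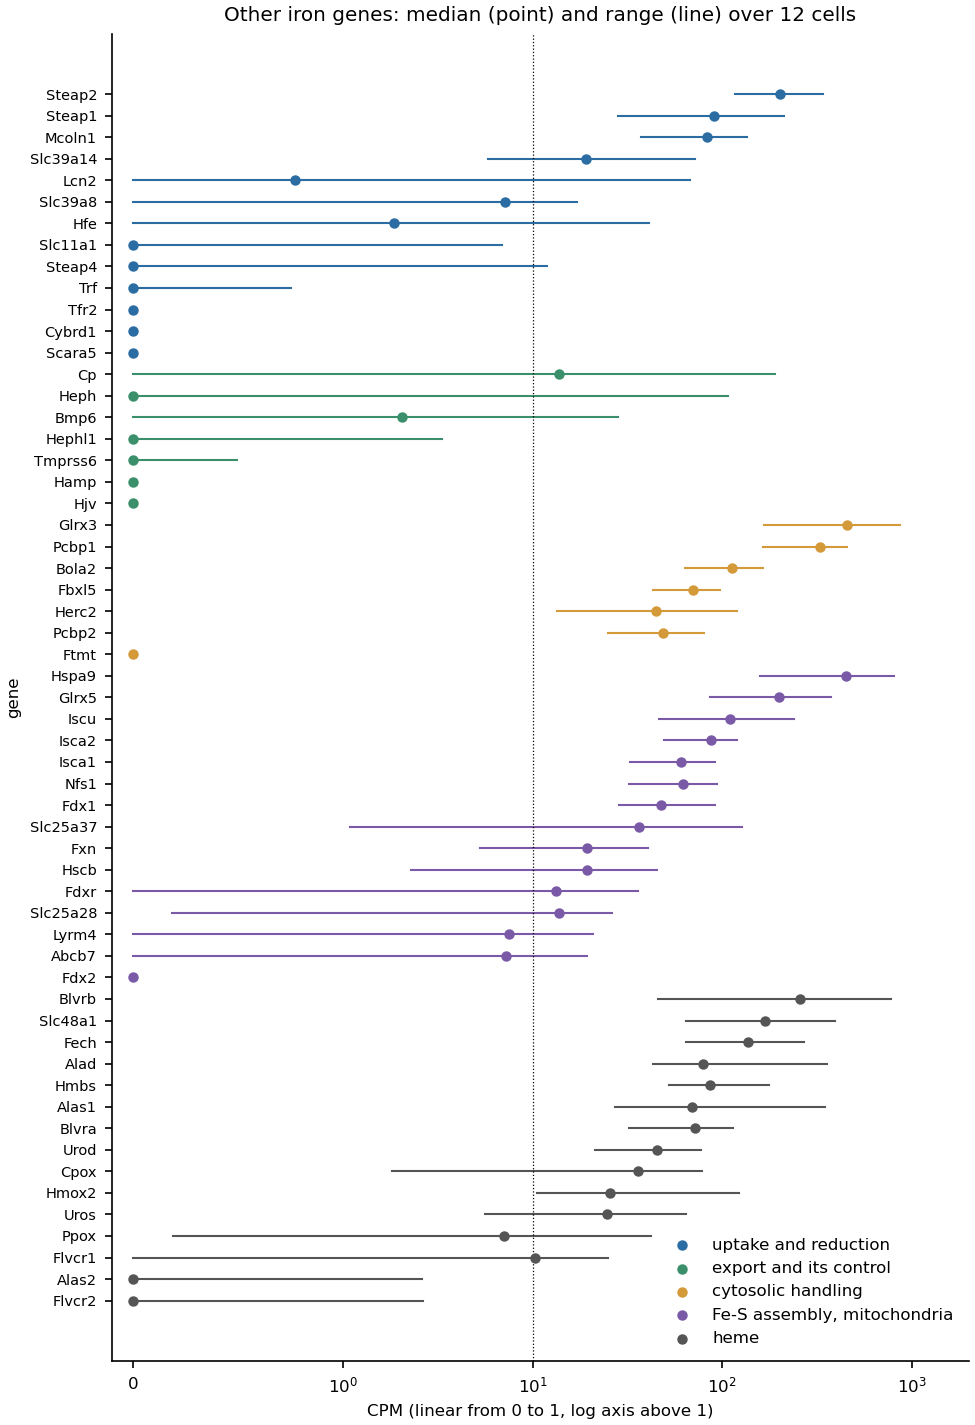
Median (point) and range (line) of CPM over 12 cells (x axis, linear from 0 to 1 and log above 1, dotted line at 10 CPM) for 57 other iron genes (y axis), colored by list. Genes of cytosolic handling, cluster assembly and heme lie mostly above 10 CPM, and most genes of export and several uptake genes have medians near 0, with Cp at 13.7 CPM the exception among export genes.

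Among uptake and reduction genes, the metalloreductases Steap2 and Steap1 had means of 220 ± 77.3 and 108 ± 52.4 CPM (SD, 12 cells), and the lysosomal channel gene Mcoln1 had 84.9 ± 33.3 CPM. All were counted in every cell. Steap4, by contrast, was counted in 3 cells. Tfr2 (the second transferrin receptor), Cybrd1 (the duodenal-type reductase) and Scara5 (a receptor for ferritin) had no count, so these 3 transcripts were not detectable at this depth. Hfe, a partner of the transferrin receptor, was counted in 7 cells and highest in CPC10 at 40.9 CPM.

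Among export genes, ceruloplasmin (Cp), a ferroxidase that works with ferroportin, had a mean of 33.0 ± 53.8 CPM (SD, 12 cells) and was highest in CPC7 at 191 CPM. It was counted in 10 cells. Its relative Heph was counted in CPC3 at 107 CPM and in CPC7 at 6.66 CPM, and in no other cell. Of the 3 cells with Slc40a1, CPC7 had both Cp and Heph counts. CPC10 had Slc40a1 at 100.4 CPM with Cp at 23.7 CPM and no Heph count. CPC4 had Slc40a1 at 10.5 CPM with Cp at 54.4 CPM and no Heph count. CPC3 had Heph, with Cp at 53.0 CPM, and no Slc40a1 count. The hepcidin gene Hamp and Hjv had no count, and Bmp6 was counted in 9 cells, highest in CPC10 at 28.2 CPM.

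Among cytosolic genes, the glutaredoxin Glrx3 had a mean of 452 ± 189 CPM, the iron chaperone gene Pcbp1 325 ± 97.3 CPM and Bola2 113 ± 33.0 CPM (SD, 12 cells). Mitochondrial ferritin (Ftmt) had no count, so the stored-iron transcripts were those of the cytosolic chains. Fbxl5, whose protein senses iron and marks IRP2 for degradation, was counted in every cell and varied little, at 71.3 ± 19.6 CPM. Among cluster assembly genes, Hspa9 had 486 ± 252 CPM, Glrx5 223 ± 87.2 CPM and the scaffold gene Iscu 115 ± 54.5 CPM. Fdx2 had no count under its older symbol. Of the mitochondrial iron importers, Slc25a37 had 43.2 ± 33.8 CPM and Slc25a28 13.6 ± 7.24 CPM.

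Among heme genes, Blvrb and Slc48a1 were most abundant by counts, at 314 ± 213 and 177 ± 100.0 CPM, followed by ferrochelatase (Fech) at 136 ± 58.7 CPM (SD, 12 cells). CPC10 was highest for Alas1, the gene of the first step of heme synthesis outside erythroid cells, at 349 CPM against at most 86.6 CPM elsewhere. It was also highest for Alad, the second step, at 357 CPM against at most 153 CPM, and for the constitutive heme oxygenase Hmox2, at 123 CPM against at most 50.4 CPM. Other heme genes were low in CPC10, with no count for the heme exporter gene Flvcr1, 0.563 CPM for Ppox, 16.3 CPM for Cpox and 33.6 CPM for Blvra. CPC10 was the highest cell for 11.9% of 8492 genes averaging 10 CPM or more, so leading single genes is common for this cell. Hmox1 in CPC10 was close to the median, at 1088 CPM. The erythroid Alas2 did not exceed 2.61 CPM.

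The highest cell differed from member to member. CPC4 was highest for Fth1 and Hmox1, CPC3 for Ftl1, CPC2 for Aco1, CPC9 for Tfrc and Slc11a2, CPC10 for Slc40a1 and Steap3, and CPC12 for Ireb2 and Ncoa4. Over the 8492 genes averaging 10 CPM or more, the share led by a cell was 13.8% for CPC9, 11.9% for CPC10, 8.46% for CPC12, 6.98% for CPC3, 6.49% for CPC4 and 5.44% for CPC2, so nothing is read from which cells recur.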

How the data were processed

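RNA of 12 single cultured CPCs was copied with the Smart-Seq v4 kit, and Nextera XT libraries were sequenced as paired reads of 75 bases. The authors mapped reads to mm10 with STAR 2.5.2b, kept unique alignments and deposited raw read counts per gene; the counting program, annotation and strand rule are not given in the sources used here. CPM, ratios, dispersion residuals and rank correlations were computed from these counts with Python 3.11.15, numpy 2.4.6, pandas 2.3.3 and scipy 1.17.1, and plotted with matplotlib 3.10.9. Intervals were exact at a level of 0.95. Lengths and positions came from GENCODE vM21 (GRCm38, the build of mm10), which matched 98.4% of the symbols. Lengths were the union of exons, with the longest transcript and the longest and shortest principal transcripts as alternatives. Of the listed genes, 4 were matched by older symbols and 2 were not in the table. A pair of libraries differed in counts by a chi-square over its degrees of freedom of at least 48.5 in each of 66 pairs, so each library was counted separately.

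Named genes were the 10 members, the 3 most abundant and the uncounted genes of each iron list, marker and cell cycle lists, and the 3 genes closest to each member counted in all cells. Srxn1, Me1, Hfe, Steap4, Heph, Bmp6, Fbxl5, Slc25a37, Slc25a28, Alas1, Alad, Hmox2, Alas2, Flvcr1, Ppox, Cpox and Blvra were named after their values were seen. Members and lists were chosen with earlier results of these data known. The dispersion and correlation steps were tested on simulated data.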

Additional observations from a re-analysis of the deposited data

How the results depend on the processing

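Besides leaving out each cell in turn, 97 alternative values were computed, some of them without both CPC3 and CPC10. Levels and ratios were read against their SD between cells, correlations and residuals against their jackknife error, the number of members counted in every cell against a 1.5-fold change, and the pathway share against its exact binomial interval. By these limits 6 of the 97 moved. The limits are wide, and for the median levels of Tfrc, Steap3 and Slc40a1 the SD exceeded the median, so a value within them shows no stability. The median ratio of Fth1 to Ftl1 was 1.26 per kilobase of exons, 3.25 with no division by length and 3.39 with the shortest principal transcript, a length chosen after the data were seen. That of Ireb2 to Aco1 was 0.822, and 1.73 with no division by length. These follow from the lengths. The share of iron pathway values at 10 CPM or more was 61.3%, and became 74.0% at 1 count or more, 65.8% at 5 CPM and 52.8% at 20 CPM, which follows from the limit. With cells left out in turn, the rho of Fth1 with Ftl1 ran from 0.12 to 0.48, the median rho over pairs from 0.11 to 0.20, the ferritin share from 0.970 to 1.05%, and the number of members counted in every cell from 8 to 9, the latter without CPC11. Slc40a1 had too few cells for a residual without CPC3 and CPC10. Depth limits the reading of zeros in Slc40a1, Tfrc and the uncounted genes. No paired analysis was possible because there is 1 group.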
